A study of Mus musculus with 6 samples.

Results

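Collagens and the small leucine-rich proteoglycans that bind them were followed in whole mouse cerebellum with and without Crebbp in the granule neuron lineage. The set holds every gene measured under a collagen chain symbol (Col, a number, a, a number), 44 genes, and 11 leucine-rich matrix proteoglycans (Dcn, Lum, Ogn, Prelp, Fmod, Bgn, Aspn, Omd, Kera, Epyc and Podn), so 55 of 22180 genes. Where a gene had several probe sets, the brightest on average was used. Cerebellar tissue was taken at postnatal day 7, and total RNA was hybridised to Affymetrix arrays. The 3 wild-type samples carry Math1Cre and wild-type Crebbp, and the 3 knockout samples are Math1Cre::CrebbpFl/Fl, so both groups carry the Cre transgene. Math1 (Atoh1) is active in granule neuron precursors and drives Cre in that lineage. The labels give no sex or strain, and do not state whether replicate arrays stem from different animals. The p-values therefore reflect only how these samples scatter, which may be technical. CREBBP is a lysine acetyltransferase and transcriptional coactivator.

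Collagens are secreted as trimers of chains whose glycine-rich repeats wind into a triple helix. Fibrillar types form the tensile fibres of connective tissue, type IV forms the mesh of basement membranes, and the small leucine-rich proteoglycans attach to fibrils and set their spacing and thickness. In the young cerebellum most of this matrix lies in the meninges, around vessels and in the stroma of the choroid plexus, while neurons make little of it. The fibroblasts of the meninges and vessels are not part of the Math1 lineage. In a sample of whole tissue, fewer cells of a type and less RNA per cell cannot be told apart.

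The labels and the tissue were checked first. All values are log2. Crebbp lay at 11.96, 11.995 and 11.90 in wild type, against 11.46, 11.42 and 11.32 in knockout, and fell by 0.56 (SE 0.049, limma adjusted p = 0.000354). Cerebellar neuron markers were bright, with Zic1, a granule lineage transcription factor, at 12.85 to 13.17 and Calb1, a Purkinje cell calcium-binding protein, at 12.30 to 12.54. Arrays of a group correlated at 0.993 to 0.996 and arrays of different groups at 0.991 to 0.994 across genes. The values of 10 measured choroid plexus markers stood apart between arrays: their mean was 7.73, 7.08 and 7.11 in wild type and 8.81, 7.14 and 9.45 in knockout. Ttr, the thyroid hormone carrier of choroid plexus epithelium, lay above 10 on wild-type replicate 1 and knockout replicates 1 and 3. Otx2, the next brightest of these markers, read 9.12, 9.24 and 9.21 in wild type and 9.26, 8.92 and 9.63 in knockout (difference 0.085). That was the lowest difference of the list. All 10 differences were positive, with a median of 0.97, and 0 passed, beside 6.67% of all genes (limma). At an unadjusted p under 0.05, 7 of the 10 were higher and 0 lower, beside 9.57% and 10.9% of all genes. The mean of 16 markers of meningeal and perivascular fibroblasts was 8.05, 8.12 and 8.05 in wild type and 8.03, 7.99 and 8.40 in knockout, so knockout replicate 3 was the highest. These values are set beside the results they move with below.

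Across the set, 3 of 55 members rose in the knockout and 0 fell at an adjusted p under 0.05 (limma, over all 22180 genes), and all 3 were proteoglycans: Prelp, Podn and Bgn. Of all genes tested, 2.72% rose and 3.94% fell. None of the 44 collagens passed, where 6.67% of all genes did. At an unadjusted p under 0.05, 6 collagens were higher and 4 lower, beside 9.57% and 10.9% of all genes. The median difference (knockout minus wild type, log2) was 0.34 over the 11 proteoglycans, 0.0073 over the 44 collagens and -0.0028 over all genes. All 11 proteoglycans had a positive difference, as did 24 of the 44 collagens and 49.1% of all genes.

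In 12 of the 55 members (21.8%) every knockout array was above every wild-type array, beside 11.8% of all genes. These 12 were 7 of the 11 proteoglycans (63.6%) and 5 of the 44 collagens (11.4%). In 7 members (12.7%), all of them collagens, every knockout array was lower, beside 13.1% of all genes. The groups overlapped in the other 36. The number of members that rose depended on single arrays: it was 1 without wild-type replicate 1 or 2 (0.897% and 1.39% of all genes rose), 4 without wild-type replicate 3 or knockout replicate 2 (1.9% and 2.15%), 6 without knockout replicate 1 (1.43%) and 2 without knockout replicate 3 (2.16%). It was 0 without the 3 arrays on which Ttr lay above 10 (0.505%), a fit that keeps 1 knockout array. With a prior variance without a trend it was 1 (0.83%), Bgn.

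**Figure D1:**
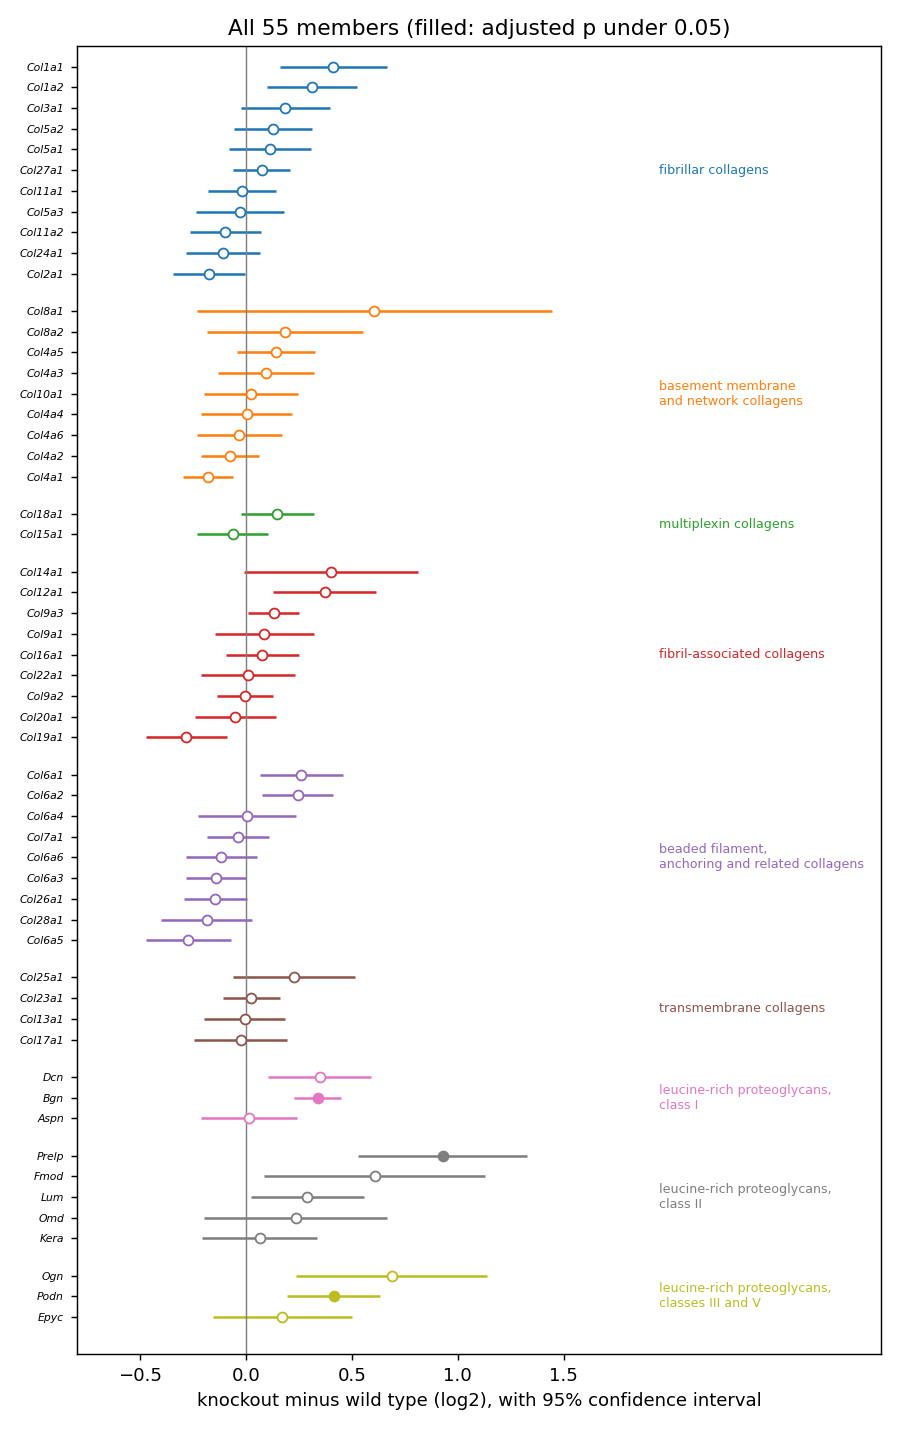
Difference between knockout and wild type (log2, horizontal axis) for each of the 55 members, grouped by class, with points for the estimate, bars for its 95% confidence interval and filled points for members that passed. The 3 filled points are the proteoglycans Bgn, Podn and Prelp, and the 44 collagens lie on both sides of 0.

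To put the sequence next to the values, the stretches just upstream of 4 proteoglycan genes are shown: Bgn, Podn and Prelp because they rose, and Ogn because it had the next largest difference in the set after Prelp and did not pass. Each is the 250 bases before the transcription start in RefSeq's table for GRCm38.p6, 5′ to 3′ on the gene's own strand, with matches on either strand in capitals. The motifs searched were TATAAA (the TATA box), CCAAT (the letters of the CCAAT box), GGGCGG (the GC box) and TGACG (part of the cAMP response element that CREB binds).
Bgn (chrX:73483351-73483600, plus strand): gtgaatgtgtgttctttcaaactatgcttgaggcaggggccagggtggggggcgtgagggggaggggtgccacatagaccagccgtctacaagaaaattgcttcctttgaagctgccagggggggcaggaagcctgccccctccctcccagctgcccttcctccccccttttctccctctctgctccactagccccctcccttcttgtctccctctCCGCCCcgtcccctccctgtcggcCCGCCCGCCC
Podn (chr4:108031955-108032204, minus strand): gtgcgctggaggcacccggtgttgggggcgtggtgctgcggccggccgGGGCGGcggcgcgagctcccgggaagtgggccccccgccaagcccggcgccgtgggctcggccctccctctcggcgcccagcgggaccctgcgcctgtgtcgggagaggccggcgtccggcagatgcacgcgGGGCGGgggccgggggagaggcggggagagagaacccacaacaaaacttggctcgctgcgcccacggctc
Prelp (chr1:133921402-133921651, minus strand): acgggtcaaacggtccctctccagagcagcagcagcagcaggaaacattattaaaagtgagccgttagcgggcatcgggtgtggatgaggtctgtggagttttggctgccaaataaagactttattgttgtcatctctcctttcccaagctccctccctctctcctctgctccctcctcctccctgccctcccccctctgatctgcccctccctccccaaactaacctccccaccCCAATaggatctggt
Ogn (chr13:49607765-49608014, plus strand): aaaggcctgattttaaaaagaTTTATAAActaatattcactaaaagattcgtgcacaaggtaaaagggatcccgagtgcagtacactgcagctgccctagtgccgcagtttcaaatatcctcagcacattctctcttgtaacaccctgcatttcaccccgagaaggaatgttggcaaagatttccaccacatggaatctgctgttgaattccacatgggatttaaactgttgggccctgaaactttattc
No motif was matched in all 3 genes that rose. Bgn holds 3 matches to GGGCGG, 2 of them overlapping, and Podn holds 2. Podn has 2 stretches in the table, and the one at the outermost start is shown. Prelp has a CCAAT at 15 bases before the start, and Ogn has 2 overlapping matches to TATAAA, of which the more distant begins 229 bases before the start. None of the 4 stretches holds TGACG. Of the 32851 promoter stretches of the same length in the table, 32.7% hold GGGCGG, 33.8% CCAAT, 12.4% TATAAA and 17.8% TGACG. The table had 49 stretches for 44 of the 55 members, and 49.0% of these hold GGGCGG, 32.7% CCAAT, 14.3% TATAAA and 8.16% TGACG. The median share of G and C bases was 57.6% in the members' stretches and 52.4% in all stretches. A match of letters is a description of the stretch and does not show a binding site.

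Among the class I proteoglycans, Bgn and Dcn read higher on every knockout array and Aspn did not. Bgn encodes biglycan, which binds collagen fibrils and growth factors. It read 10.81, 10.86 and 10.89 in wild type and 11.15, 11.15 and 11.28 in knockout, with the groups apart and little spread in either. It rose 1.26-fold (95% confidence interval 1.17 to 1.37), or by 0.34 in log2 (SE 0.050, adjusted p = 0.00448). Dcn encodes decorin, which binds and spaces type I fibrils, and read 10.30, 10.44 and 10.41 in wild type against 10.49, 10.69 and 11.02 in knockout. Its groups did not overlap, but the difference of 0.35 (SE 0.11) did not pass (adjusted p = 0.0969), and knockout replicate 3 lay highest. It passed without knockout replicate 1 (0.47, adjusted p = 0.0285), and without knockout replicate 3 the difference was 0.20 (adjusted p = 0.133). Aspn, the gene of asporin, ranged from 6.48 to 6.71 in wild type and from 6.50 to 6.76 in knockout, which overlap (difference 0.014, 95% confidence interval -0.21 to 0.24).

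A second probe set of Bgn differed from the first. It read 8.52, 8.54 and 8.46 in wild type and 8.44, 8.31 and 8.56 in knockout, a difference of -0.067 (adjusted p = 0.691). The call for Bgn held whichever array was left out, with differences of 0.29 to 0.36, and without the arrays with Ttr above 10 the difference was 0.27 (adjusted p = 0.247). That last fit sets 1 knockout array against 2 wild-type arrays, and 0.505% of all genes rose in it.

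Among the class II proteoglycans, Prelp rose and Fmod and Lum lay higher on each knockout array without passing. Prelp encodes prolargin, which ties basement membranes to the collagen beneath them. It read 8.79, 8.56 and 8.83 in wild type and 9.71, 9.18 and 10.07 in knockout, so the groups were apart and the knockout arrays spread widely. The rise of 0.93 (SE 0.18, adjusted p = 0.0148) was the largest difference of the set, and as a fold its 95% confidence interval ran from 1.44 to 2.51. The order of the knockout arrays was that of the choroid plexus mean on the same arrays (8.81, 7.14 and 9.45). Once that mean entered the fit as a covariate, the rise was 0.52 (adjusted p = 0.0380), and without the arrays with Ttr above 10 the difference was 0.49 (adjusted p = 0.122).

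A second probe set of Prelp read 6.98, 6.79 and 6.79 in wild type and 6.66, 6.65 and 6.60 in knockout, with the knockout lower on every array (-0.22, adjusted p = 0.197). The first probe set no longer passed in the fits lacking wild-type 1, wild-type 2 or knockout 1 (adjusted p = 0.0586, 0.0654 and 0.0509), with differences of 0.96, 0.84 and 0.90.

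Fmod encodes fibromodulin, which takes part in fibril assembly and crosslinking. It read 7.60, 7.88 and 8.04 in wild type and 8.11, 8.12 and 9.12 in knockout. The groups were apart by a narrow margin, and knockout replicate 3 stood about 1 above the other knockout arrays (difference 0.61, SE 0.23, adjusted p = 0.173). Without that array the difference was 0.27 (adjusted p = 0.240). A second probe set had a difference of 0.19 (adjusted p = 0.441). Lum, the gene of lumican, which keeps corneal fibrils thin, read 7.19, 7.12 and 7.25 in wild type and 7.31, 7.35 and 7.78 in knockout (difference 0.29, adjusted p = 0.207). Here too the groups were apart and the gap to knockout replicate 3 was larger than the gap between the groups, and without that array the difference was 0.14. Omd (osteomodulin) ranged from 4.81 to 5.28 in wild type and from 4.90 to 5.67 in knockout, dim beside the lower quartile of all values (6.02). Kera, the keratan sulphate proteoglycan keratocan of the cornea, ranged from 6.12 to 6.45 and from 6.13 to 6.44. Neither separated the groups (differences 0.23 and 0.064).

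In class III, Ogn (osteoglycin, also called mimecan) read 8.07, 8.33 and 8.38 in wild type and 8.58, 8.74 and 9.53 in knockout. The groups were apart, and the difference of 0.69 (SE 0.20) missed the threshold (adjusted p = 0.0762). Without knockout replicate 1 it was 0.87 and passed (adjusted p = 0.0433), and without knockout replicate 3 it was 0.40 (adjusted p = 0.0525). Epyc (epiphycan), a cartilage proteoglycan, ranged from 5.44 to 5.91 in wild type and from 5.68 to 6.04 in knockout, which overlap.

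Podn encodes podocan, a class V proteoglycan that binds type I collagen. It read 7.50, 7.45 and 7.62 in wild type and 7.89, 7.79 and 8.15 in knockout, with every knockout array above every wild-type array. The order of the knockout arrays was that of the choroid plexus mean, as for Prelp. Podn rose 1.33-fold (95% confidence interval 1.14 to 1.55), or by 0.41 in log2 (SE 0.098, adjusted p = 0.0362). Of the 6 fits that leave out an array, those lacking wild-type 1, wild-type 2, knockout 1 or knockout 3 gave an adjusted p of 0.127, 0.121, 0.0741 and 0.0737, with differences of 0.40, 0.38, 0.44 and 0.31. After adjustment for the choroid plexus mean the difference was 0.27 (adjusted p = 0.243), and without the arrays with Ttr above 10 it was 0.25 (adjusted p = 0.530).

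**Figure D2:**
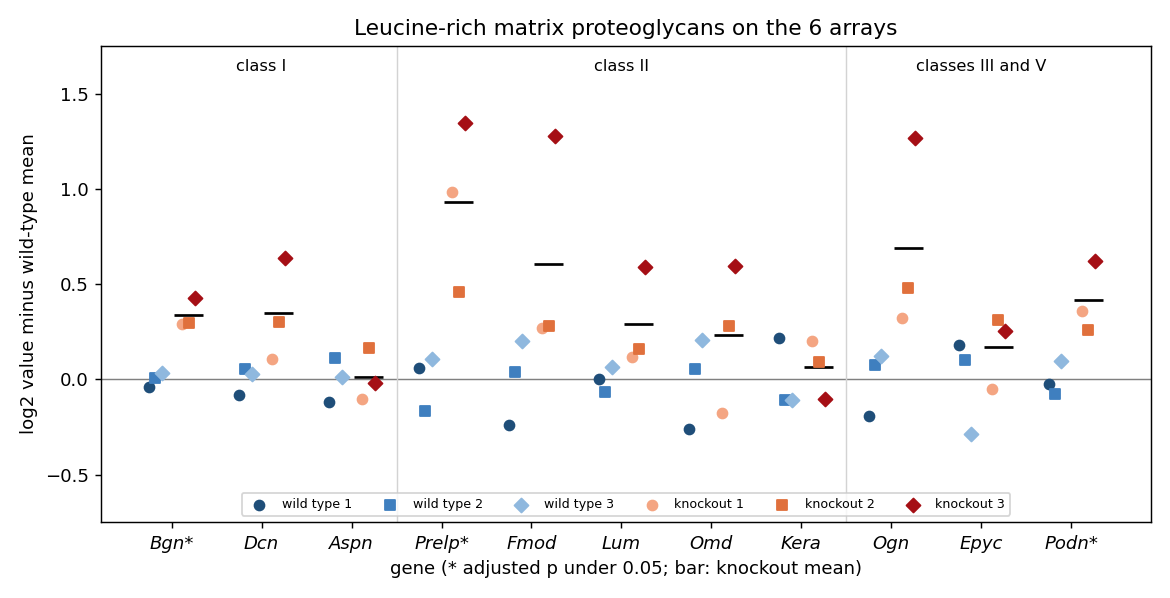
Log2 value of each of the 11 proteoglycans on each of the 6 arrays, minus that gene's wild-type mean, with horizontal bars for the knockout mean and asterisks for genes that passed. Knockout replicate 3 is the highest array for 8 of the 11 genes, and the knockout arrays of Bgn lie closest together among the 3 that passed.

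Several proteoglycan genes are neighbours on their chromosomes, in the gene order of GRCm38.p6. Dcn, Lum, Kera and Epyc follow each other on chromosome 10, and their differences were 0.35, 0.29, 0.064 and 0.17. Aspn, Omd and Ogn follow each other on chromosome 13, with differences of 0.014, 0.23 and 0.69. Prelp and Fmod are neighbours on chromosome 1, with 0.93 and 0.61. The groups were therefore apart for some genes of each run and not for others in the runs on chromosomes 10 and 13, and apart for both genes of the pair on chromosome 1.

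The chains of type I collagen, the main fibre of meninges and other connective tissue, came nearest to the threshold among the 11 fibrillar collagens. Col1a1 read 9.19, 9.22 and 9.41 in wild type and 9.49, 9.59 and 9.97 in knockout (difference 0.41, SE 0.11, adjusted p = 0.0596). Its partner chain Col1a2 read 9.13, 9.24 and 9.31 in wild type and 9.39, 9.45 and 9.77 in knockout (difference 0.31, SE 0.096, adjusted p = 0.0895). Both chains were higher on each knockout array than on any wild-type array, with knockout replicate 3 highest. A second probe set of Col1a2 had a difference of 0.35 (adjusted p = 0.245). Col1a1 passed without knockout replicate 1 (0.51, adjusted p = 0.0426) and with dim genes left out (adjusted p = 0.0499). Without knockout replicate 3 the differences of Col1a1 and Col1a2 were 0.27 and 0.19.

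Col3a1, whose trimer mixes with type I fibres in soft tissue, read 9.61, 9.61 and 9.56 in wild type and 9.53, 9.85 and 9.96 in knockout, so its groups overlapped (difference 0.19, adjusted p = 0.309). It passed without knockout replicate 1, its lowest array (0.31, adjusted p = 0.0270), and without knockout replicate 3 the difference was 0.096 (adjusted p = 0.626). The other 8 fibrillar collagens (the chains of types II, V, XI, XXIV and XXVII) had differences from -0.17 to 0.13, and all of their groups overlapped. Col2a1, the cartilage fibre chain, named for having the lowest of these differences, read 8.47, 8.64 and 8.42 against 8.44, 8.29 and 8.27 (-0.17, adjusted p = 0.236).

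Of the 9 basement membrane and network collagens, 6 had a positive and 3 a negative difference, and none passed, beside 6.67% of all genes. By limma, 0 were higher and 1 lower at an unadjusted p under 0.05, beside 9.57% and 10.9% of all genes. Col4a1, the most widely used type IV chain with Col4a2, read 9.33, 9.24 and 9.35 in wild type and 9.10, 9.16 and 9.11 in knockout. Every knockout array was lower, though the difference of -0.18 (SE 0.054) did not pass (adjusted p = 0.0808). Its partner Col4a2 read 8.70, 8.57 and 8.71 against 8.59, 8.53 and 8.63, which overlap (-0.076, adjusted p = 0.568). Col4a1 and Col4a2 lie head to head on chromosome 8, and the RefSeq promoter stretches of the pair (300 bases each, around the start) share 78 bases. Col4a5, a chain of the X-linked pair with Col4a6, ranged from 7.88 to 8.12 in wild type and from 8.09 to 8.26 in knockout (0.14, adjusted p = 0.395). The remaining type IV chains and Col10a1, the growth plate collagen, had differences between -0.031 and 0.094. The multiplexins, basement membrane collagens, gave 0.15 for Col18a1, the source of endostatin, and -0.062 for Col15a1, with overlapping groups in both.

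The type VIII chains, short network-forming collagens of vessels and Descemet's membrane, differed between knockout arrays more than between the groups, and were singled out after their values were seen. Col8a1 read 7.26, 7.18 and 7.21 in wild type and 8.06, 6.71 and 8.69 in knockout. Col8a2 read 6.88, 6.82 and 7.06 in wild type and 7.19, 6.68 and 7.44 in knockout. For both genes knockout replicate 2 was below all wild-type arrays while knockout replicates 1 and 3 were above them. The differences of 0.61 (95% confidence interval -0.23 to 1.44) and 0.18 became -0.30 and -0.15 after adjustment for the choroid plexus mean, and -0.48 and -0.26 without the arrays with Ttr above 10. Col8a1 passed without knockout replicate 2 (1.16, adjusted p = 0.00385). Wild-type replicate 1, with Ttr at 12.30, did not stand apart from the other wild-type arrays in either gene. Its choroid plexus mean was 7.73, below the 8.81 and 9.45 of knockout replicates 1 and 3. The source of the pattern was not tested.

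Among the fibril-associated collagens, which sit on the surface of fibres, Col12a1 read 7.75, 8.10 and 8.19 in wild type and 8.28, 8.40 and 8.48 in knockout. The groups were narrowly apart and the difference of 0.37 (SE 0.11) did not pass (adjusted p = 0.0748). It passed without wild-type replicate 3 (0.46, adjusted p = 0.0469), and without wild-type replicate 1 the difference was 0.24 (adjusted p = 0.193). Type IX collagen, a cartilage collagen with a matching set of 3 chains, gave 0.13 for Col9a3, whose groups were apart, 0.087 for Col9a1 and -0.0042 for Col9a2 (adjusted p = 0.206, 0.726 and 0.982). Col14a1, a relative of Col12a1 named after its values were seen, read 6.57, 6.87 and 6.71 against 6.95, 6.79 and 7.62, with knockout replicate 3 alone well above the rest (difference 0.40, and 0.15 without it). Col19a1, which some neurons make and which was also named after its values were seen, read 7.06, 6.95 and 7.00 in wild type and 6.77, 6.79 and 6.61 in knockout. It was lower on each knockout array (-0.28, SE 0.086, adjusted p = 0.0869).

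Type VI collagen forms beaded filaments from 3 chains, and its main chains differed in sign. Col6a1 read 9.28, 9.39 and 9.28 in wild type and 9.37, 9.59 and 9.76 in knockout (0.26, SE 0.087, adjusted p = 0.115). Col6a2, its neighbour on chromosome 10, read 8.50, 8.61 and 8.60 against 8.73, 8.75 and 8.97 (0.24, SE 0.075, adjusted p = 0.0898). Both lay mostly higher in knockout, with overlap for Col6a1. Col6a3, the long partner chain, named after its values were seen, read 8.08, 8.13 and 8.12 in wild type and 7.96, 7.91 and 8.04 in knockout, lower on each array (-0.14, adjusted p = 0.247). A second probe set of Col6a1 had a difference of 0.13 (adjusted p = 0.512). Col6a1 passed without knockout replicate 1 (0.36, adjusted p = 0.0279), and without knockout replicate 3 its difference was 0.17 (adjusted p = 0.254). The difference between the chains was not tested.

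Of the 9 beaded filament, anchoring and related collagens, 6 had a negative difference and none passed, beside 6.67% of all genes. By limma, 2 were higher and 1 lower at an unadjusted p under 0.05, beside 9.57% and 10.9% of all genes. Col26a1 read 8.39, 8.35 and 8.38 in wild type and 8.24, 8.13 and 8.33 in knockout (-0.14, adjusted p = 0.265). Its groups were apart, as were those of Col28a1, Col6a5 and Col6a6 (-0.19, -0.27 and -0.12), named for this count, all lower in knockout. With Col6a3, every knockout array was lower in 5 of the 9, and every one was higher in 1. Among all genes these shares were 13.1% and 11.8%. Col6a5 was dim, with a knockout mean of 5.77. Col7a1, the anchoring fibril of skin, and Col6a4 differed by -0.037 and 0.0043. Of the 4 transmembrane collagens, Col23a1, Col13a1 and Col25a1 had differences of 0.025, -0.0063 and 0.23. Col25a1 is a neuronal collagen that motor axons need to reach muscle, and its values of 7.37, 7.06 and 7.02 in wild type overlapped those of 7.61, 7.15 and 7.37 in knockout (adjusted p = 0.375). The groups of all 4 overlapped.

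Knockout replicate 3 was the highest of the 6 arrays for 27 of 55 members (49.1%), for 19 of 44 collagens and 8 of 11 proteoglycans, where 18.0% of all genes had their highest value there. It was also the highest array for all 10 choroid plexus markers and for 12 of 16 fibroblast markers. Of the latter, 9 had a positive and 7 a negative difference, with a median of 0.086, and of -0.055 without knockout replicate 3. Among them Slc13a4, a sulphate transporter named after its values were seen, read 8.43, 8.71 and 8.55 in wild type and 9.07, 8.75 and 10.21 in knockout. Its difference of 0.78 was the highest of the 16. The brightest of that list, Islr, ranged from 9.79 to 9.90 in wild type and from 9.91 to 10.35 in knockout, and Cemip, an enzyme of hyaluronan breakdown, differed by -0.19. None of the 16 passed, beside 6.67% of all genes (limma). At an unadjusted p under 0.05, 1 was higher and 1 lower, beside 9.57% and 10.9% of all genes. Without knockout replicate 3 the median difference was 0.20 over the proteoglycans and 0.035 over all members, against 0.34 and 0.074 with it.

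The mean of 12 endothelial markers was 8.50 to 8.62 in wild type and 8.61 on each knockout array, and that of 10 mural cell markers was 8.76 to 8.85 and 8.78 to 8.85. Their brightest genes, Cdh5, the adhesion protein of endothelial junctions, and Rgs5, a pericyte marker, differed by 0.045 and -0.030. The next brightest, Slco1c1 in the endothelial and Vtn in the mural list, differed by 0.072 and 0.21, with knockout replicate 3 highest for both. None of either list passed, beside 6.67% of all genes (limma). By unadjusted p under 0.05, 1 endothelial and 0 mural markers were higher and 0 lower, beside 9.57% and 10.9% of all genes. Of 10 cartilage and bone markers 1 rose and 0 fell, beside 2.72% and 3.94% of all genes. The 1 was Cnmd, the cartilage protein chondromodulin, which went from 6.60, 6.70 and 6.91 to 7.53, 7.95 and 7.33 (0.87, limma adjusted p = 0.00815). Phex, a bone cell endopeptidase, differed by -0.22 and did not pass. Of 9 measured cerebellar neuron markers 4 fell and 0 rose, beside 3.94% and 2.72% of all genes. At an unadjusted p under 0.05 (limma), 7 were lower and 1 higher, beside 10.9% and 9.57% of all genes. The mean of the 9 was 10.91 to 11.10 in wild type and 10.62 to 10.78 in knockout, with 7 negative and 2 positive differences. Zic1 fell by 0.24. Calb1 went the other way, at 12.30, 12.39 and 12.38 in wild type and 12.50, 12.54 and 12.51 in knockout. Its difference of 0.16 did not pass (limma adjusted p = 0.0577). The part that these lists play in the members' values was not tested beyond the fits with a covariate.

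After adjustment for the mean of the fibroblast list, 8 members rose: Bgn, Podn, Prelp, Ogn, Dcn, Fmod, Col1a1 and Col1a2. In that fit the differences of the 5 that were added ran from 0.25 for Col1a2 to 0.53 for Ogn (adjusted p = 0.0463 and 0.00949), and 3.08% of all genes rose. After adjustment for the choroid plexus mean, 2 members rose, Bgn (0.30, adjusted p = 0.0492) and Prelp, beside 1.12% of all genes. Each of the covariate fits rests on 6 arrays and spends a degree of freedom on the covariate.

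**Figure D3:**
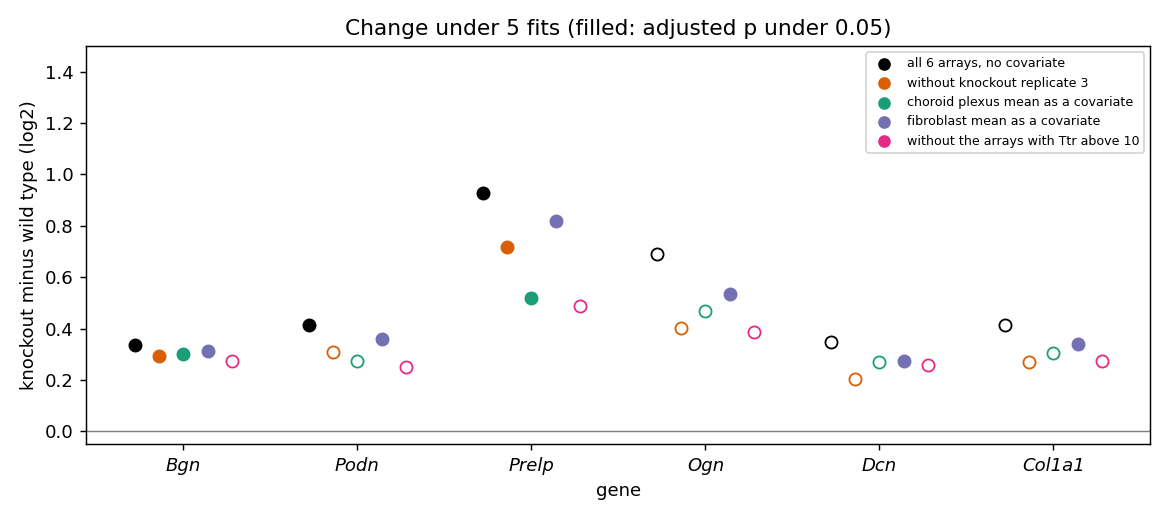
Difference between knockout and wild type (log2, vertical axis) for 6 members under 5 fits, with filled points where the adjusted p was under 0.05. All points lie above 0, from 0.20 for Dcn without knockout replicate 3 to 0.93 for Prelp with all arrays, and no point is filled without the arrays with Ttr above 10.

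Genes that act on collagen around the cell were taken from lists for 4 steps. Of 24 measured genes of collagen modification, secretion and crosslinking, 3 rose and 0 fell (median difference 0.066), beside 2.72% and 3.94% of all genes. At an unadjusted p under 0.05 (limma), 9 were higher and 2 lower, beside 9.57% and 10.9% of all genes. P4ha3, a subunit of the prolyl hydroxylase that stabilises the helix, read 8.18, 7.93 and 7.87 in wild type and 8.58, 8.75 and 8.52 in knockout. Its groups were well apart, and it rose by 0.62 (SE 0.094, adjusted p = 0.00458). Without the arrays with Ttr above 10 the difference was 0.86; there the single knockout array has no spread of its own and is taken to vary like the wild-type arrays. Crtap, a partner of the prolyl 3-hydroxylase complex, read 9.48, 9.27 and 9.38 against 9.78, 9.73 and 9.90 and rose by 0.43 (SE 0.068, adjusted p = 0.00564). Adamts14, a protease that removes the amino-terminal propeptide of procollagen, read 7.82, 7.80 and 7.87 against 8.21, 8.15 and 8.27 and rose by 0.38 (SE 0.064, adjusted p = 0.00823). All 3 passed in each fit that leaves out 1 array. A second probe set of Adamts14 had a difference of -0.091 (adjusted p = 0.631), and without the arrays with Ttr above 10 Crtap and Adamts14 did not pass (0.41 and 0.31, adjusted p = 0.0948 and 0.312).

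The collagen chaperone Serpinh1 (HSP47) and the lysyl hydroxylase Plod2, named after their values were seen, had differences of 0.066 and 0.042 with overlapping groups. Of 8 measured collagen receptors, 0 passed and 0 had an unadjusted p under 0.05 (limma), with differences from -0.031 to 0.16. Among all genes these shares were 6.67% and 20.4%. Of 11 measured matrix proteases and inhibitors, 1 rose and 1 fell, beside 2.72% and 3.94% of all genes. At an unadjusted p under 0.05 (limma), 2 were higher and 4 lower, beside 9.57% and 10.9% of all genes, and 8 of the 11 had a negative difference. Mmp14, a membrane-bound collagenase, read 10.22, 10.17 and 10.27 in wild type and 10.51, 10.62 and 10.48 in knockout and rose by 0.32 (SE 0.053, adjusted p = 0.00747), and it passed in each fit lacking 1 array. Mmp16, a related membrane-bound protease, read 9.93, 10.01 and 10.10 against 9.72, 9.79 and 9.70 and fell by 0.28 (SE 0.057, adjusted p = 0.0199). Mmp16 no longer passed when wild-type replicate 2, wild-type replicate 3 or knockout replicate 1 was left out (adjusted p = 0.0608, 0.0604 and 0.0656).

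Of 14 measured basement membrane partners (laminins, nidogens, perlecan and agrin), 1 rose and 0 fell, beside 2.72% and 3.94% of all genes. At an unadjusted p under 0.05 (limma), 4 were higher and 0 lower, beside 9.57% and 10.9% of all genes. Lamb2, the laminin beta 2 chain of synaptic and vascular basement membranes, read 8.60, 8.60 and 8.64 in wild type and 8.85, 8.88 and 8.91 in knockout. The arrays of each group lay close together, and the rise was 0.27 (SE 0.053, adjusted p = 0.0160). It no longer passed when wild-type replicate 1 or 2 was left out (adjusted p = 0.0748 and 0.0556), with differences of 0.26 in both. Without the arrays with Ttr above 10, Mmp14, Mmp16 and Lamb2 did not pass (0.40, -0.26 and 0.26).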

How the data were processed

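Expression was measured in 3 wild-type and 3 knockout samples of mouse cerebellum. The deposited values are log2 expression values per probe set, made with RMA and oligo (no versions), per the submitters' processing notes. The array's build and any filter on probe sets were not given in the sources used here; deposited values carry no detection call. With 3 arrays per group, their number limits the precision. Of 41345 probe sets, 23521 had 1 gene symbol in GEO's platform annotation, 1814 several and 16010 none. All 55 members matched the mouse gene table (GRCm38.p6) by Entrez identifier. Of the probe sets with several symbols, 1 names a member (Col6a1), and none was used.

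Differences were estimated by lmFit and tested two-sided by eBayes with a variance trend (limma 3.58.1, R 4.3.3). No filter on low values was set, and the Benjamini-Hochberg adjustment covered 22180 genes. "Rose" and "fell" mark an adjusted p under 0.05. The members and lists were chosen with earlier results of these data known. Text names every member that passed, all proteoglycans, the 3 members of each collagen class with the highest mean and the 3 nearest the threshold. In pathway lists it names up to 4 genes that passed, and in cell type lists the 2 with the highest mean. The fit was tested on simulated data. Summaries and plots used Python 3.11.15, pandas 2.3.3 and matplotlib 3.10.9. The alternatives were other variance priors, dim genes left out, weighting of arrays, recentring, a second quantile normalization, a block for replicate number, a fit per probe set, other thresholds, cell type covariates and left-out arrays.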

Additional observations from a re-analysis of the deposited data

How the results depend on the processing

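For the brightest probe set of each gene, the proteoglycans kept their direction in all fits run, with the exception of Aspn and Kera. The second probe sets of Bgn and Prelp had the opposite direction (-0.067 and -0.22) and are not part of these counts. Of the 55 members, 38 kept their direction in each and 17 did not. The number of members that rose was 1 with a prior variance without a trend, 8 with the fibroblast covariate, 0 without the arrays with Ttr above 10, and 1 or 9 at an adjusted p under 0.01 or 0.1, where 0 or 2 fell. Leaving out each array in turn gave 1 to 6 members that rose. At thresholds of 0.01 and 0.1 the share of all genes was not counted, so the member counts there have no background beside them. Prelp and Podn did not pass without a variance trend (adjusted p = 0.0746 and 0.0927), nor Prelp with a robust prior (0.0681). Replicate numbers are shared between the groups. Same-numbered arrays deviated together by r = 0.0135, 0.0297 and -0.1327, within the -0.136 to 0.1181 of arrays with different numbers. The numbers thus gave no sign of pairing, but a weak shared effect could go unseen, so pairing was not settled. With the replicate block 9 members rose (3.26% of all genes): Bgn, Podn and Prelp, and also Col1a1, Ogn, Col12a1, Col1a2, Dcn and Fmod (adjusted p = 0.0064, 0.0165, 0.0199, 0.0209, 0.0305 and 0.0340).

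Without the arrays with Ttr above 10, 1 gene of collagen modification rose, 0 matrix proteases rose, 0 fell, and 0 basement membrane partners rose. With each array left out, 0 to 1 proteases fell and 0 to 1 basement membrane partners rose. Directions reversed as follows. With the setting "array weights" the differences were 0.015 for Col11a1, -0.017 for Col22a1 and -0.020 for Col4a4. With the setting "arrays centred on their medians" the differences were -0.0069 for Aspn, -0.010 for Col22a1, -0.018 for Col4a4 and -0.016 for Col6a4. With the setting "choroid plexus mean as a covariate" the differences were 0.061 for Col11a1, -0.071 for Col22a1, -0.029 for Col23a1, -0.12 for Col4a4, -0.088 for Col6a4, -0.30 for Col8a1 and -0.15 for Col8a2. With the setting "fibroblast mean as a covariate" the differences were 0.00992 for Col11a1, -0.048 for Col4a4 and -0.039 for Col6a4. With the setting "quantile normalized again" the differences were -0.00665 for Col22a1 and -0.00694 for Col4a4. With the setting "without the arrays with Ttr above 10" the differences were -0.00229 for Col10a1, -0.15 for Col4a4, 0.011 for Col4a6, -0.019 for Col5a1, -0.17 for Col6a4, -0.48 for Col8a1 and -0.26 for Col8a2. With each array left out in turn, differences ran from -0.061 to 0.072 for Aspn, -0.038 to 0.062 for Col10a1, -0.054 to 0.040 for Col11a1, -0.085 to 0.038 for Col13a1, -0.094 to 0.043 for Col17a1, -0.12 to 0.029 for Col20a1, -0.059 to 0.12 for Col22a1, -0.027 to 0.063 for Col23a1, -0.090 to 0.071 for Col4a4, -0.11 to 0.016 for Col4a6, -0.11 to 0.045 for Col5a3, -0.060 to 0.079 for Col6a4, -0.056 to 0.024 for Col9a2 and -0.00504 to 0.17 for Kera. The causes were not tested. The number of arrays limits the precision, and with no detection call the dim members have no known floor.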
